A study of Mus musculus with 12 samples.

Results

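The vascular endothelial genes were 10 symbols that mark the cells lining blood vessels: Pecam1, Cdh5, Kdr, Tek, Tie1, Vwf, Emcn, Eng, Esam and Egfl7. They were chosen by name as known genes of the cell type, with earlier results of these data known, and all 10 were found among the 23234 symbols listed in each of 12 mouse ear skin libraries. All 10 passed the filter on low values, at least 1 FPKM (fragments scaled by transcript length and by library size) in at least 3 of the 12 libraries, as did 14059 symbols in all. The 4 groups of 3 libraries came from C57BL/6J mice of 8 to 12 weeks of age. VDRcKO_Oxarol ears carried K5-Cre and floxed Vdr alleles (K5-Cre;VDR f/f) and received 100 mg of Oxarol, an ointment of the active vitamin D3 analogue maxacalcitol. WT_Oxarol ears were wild type with the same ointment, WT_PBS ears were wild type given phosphate-buffered saline, and WT_untreated ears were wild type without treatment. Treated ears were sampled 1 day after application. The keratin 5 promoter directs Cre, and so the loss of the vitamin D receptor gene Vdr, to basal keratinocytes and not to endothelium. No untreated or PBS-treated group of that genotype was analysed here, so a difference of VDRcKO_Oxarol from WT_PBS or WT_untreated joins genotype and ointment. Whether the 3 libraries of a group are 3 animals is not stated in the labels, so p-values cover the spread between libraries, possibly a technical one.

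Endothelial cells form the inner wall of vessels and lymphatics, and in skin they supply the dermis while the epidermis has no vessels of its own. They hold together through VE-cadherin and other adhesion molecules at their junctions, and they read growth factors through the VEGF receptors, the angiopoietin receptor TIE2 and the TGF-beta co-receptor endoglin. Many genes of this cell type carry sites for ETS family transcription factors, whose core is GGAA, near their starts. Pecam1 is also made by platelets and leukocytes, Vwf by megakaryocytes, and Eng and Tek by some macrophages, so these symbols are not exclusive to endothelium.

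Start regions of 4 members and 1 microRNA are shown. The 4 are the matched members with AGGAAG, a longer form of GGAA, in a window, and for each the window with most of it is printed. The windows run from 250 bases before to 50 after an annotated start, from RefSeq on GRCm38.p6, and capitals mark GGAA and its reverse complement TTCC. RefSeq windows matched 6 of the 10 members (Egfl7, Eng, Emcn, Tek, Tie1 and Kdr), with 8 windows in all because Egfl7 has 3. The Eng window lies at chr2:32646345-32646644 on the plus strand, the Tie1 window at chr4:118489800-118490099 on the minus strand, the Emcn window at chr3:137340828-137341127 on the plus strand, and the Egfl7 window shown at chr2:26580833-26581132 on the plus strand.
Eng: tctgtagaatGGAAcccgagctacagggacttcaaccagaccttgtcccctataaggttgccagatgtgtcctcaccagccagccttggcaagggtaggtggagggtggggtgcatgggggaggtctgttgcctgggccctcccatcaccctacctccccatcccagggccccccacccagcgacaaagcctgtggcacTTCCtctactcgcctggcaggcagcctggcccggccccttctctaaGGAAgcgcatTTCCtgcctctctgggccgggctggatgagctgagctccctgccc
Tie1: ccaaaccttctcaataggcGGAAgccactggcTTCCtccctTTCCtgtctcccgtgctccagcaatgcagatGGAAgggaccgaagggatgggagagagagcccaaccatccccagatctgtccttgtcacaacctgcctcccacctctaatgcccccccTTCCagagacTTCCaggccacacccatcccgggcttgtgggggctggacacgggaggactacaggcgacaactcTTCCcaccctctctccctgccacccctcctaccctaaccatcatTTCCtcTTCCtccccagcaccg
Emcn: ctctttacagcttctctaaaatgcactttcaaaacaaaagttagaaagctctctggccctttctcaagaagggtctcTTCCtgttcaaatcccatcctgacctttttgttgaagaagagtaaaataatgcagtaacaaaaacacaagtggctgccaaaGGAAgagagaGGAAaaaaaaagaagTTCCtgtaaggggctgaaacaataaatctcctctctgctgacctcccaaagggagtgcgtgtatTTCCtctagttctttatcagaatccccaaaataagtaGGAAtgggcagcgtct
Egfl7: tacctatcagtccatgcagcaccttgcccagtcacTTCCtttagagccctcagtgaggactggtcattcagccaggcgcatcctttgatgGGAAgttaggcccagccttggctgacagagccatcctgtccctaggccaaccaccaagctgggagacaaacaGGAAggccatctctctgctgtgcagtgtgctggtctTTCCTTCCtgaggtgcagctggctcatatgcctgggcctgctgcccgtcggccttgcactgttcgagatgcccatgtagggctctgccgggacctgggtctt
Mature miR-126a-3p, an endothelial microRNA whose gene lies with Egfl7, is given with its seed, bases 2 to 8, in capitals; it lies at chr2:26591402-26591423 on the plus strand.
mmu-miR-126a-3p: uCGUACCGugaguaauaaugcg
Counted on both strands, GGAA was present in 8 of 8 member windows, from 1 match in an Egfl7 window to 9 in the Tie1 window. The longer form AGGAAG, which contains GGAA, was present in 5 of 8, with Egfl7 counted more than once. It was absent from the Tek and Kdr windows and from an Egfl7 window, none of which is printed. Of all 32851 windows of that length, 96.0% held GGAA and 35.4% held AGGAAG, so the short core does not set the members apart. These matches describe the letters in the windows and not binding.

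The libraries differed in depth. From the value of 1 fragment in genes with 1 annotated transcript, the depth was estimated at 4560000 to 6770000 fragments in VDRcKO_Oxarol, at 7260000 to 23500000 in WT_Oxarol, at 12900000 to 113000000 in WT_PBS and at 10200000 to 14500000 in WT_untreated. A member's value then rested on an estimated 58.0 fragments (Tie1 in WT_untreated replicate 1) to 3940, and no member was at 0 in any library. By their codes the libraries form 2 series, one with replicates 1 and 2 of each wild type group (the first) and one with replicate 3 of each wild type group and all 3 VDRcKO_Oxarol libraries (the second). The labels do not call this a batch. All VDRcKO_Oxarol libraries are of the second series, so against the wild type libraries of the first, series and genotype cannot be told apart. Vdr itself, summed over the whole gene, was higher and not lower, at 17.98 to 25.0 FPKM in VDRcKO_Oxarol, against 6.68 to 7.87 FPKM in WT_Oxarol. A whole-gene value does not check a deletion of part of the gene. Cyp24a1, the vitamin D-degrading enzyme and a standard target of the receptor, stood at 0 to 0.271 FPKM in VDRcKO_Oxarol, against 66.2 to 599 FPKM in WT_Oxarol.

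Across the 12 libraries the members spanned a wide range of levels. Egfl7, a secreted protein of the vessel matrix, was the highest at 18.5 ± 1.94 FPKM (SD, n = 12), and Vwf, the clotting factor stored in endothelial granules, was the lowest at 1.40 ± 0.45 FPKM. Between them, Pecam1 averaged 9.32 FPKM, Eng 7.82, Esam 6.96, Emcn 5.50, Tek 3.51, Cdh5 3.33, Tie1 2.83 and Kdr 2.66 FPKM over the 12 libraries. FPKM is per length of transcript, so these levels can be set side by side. Egfl7 exceeded Pecam1, Pecam1 exceeded Eng, Emcn exceeded Tek and Kdr exceeded Vwf in 12 of 12 libraries. Eng exceeded Esam in 8 of 12, Esam exceeded Emcn in 8, Tek exceeded Cdh5 in 7, Cdh5 exceeded Tie1 in 10 and Tie1 exceeded Kdr in 5, so among these neighbours the order changed from library to library.

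**Figure D1:**
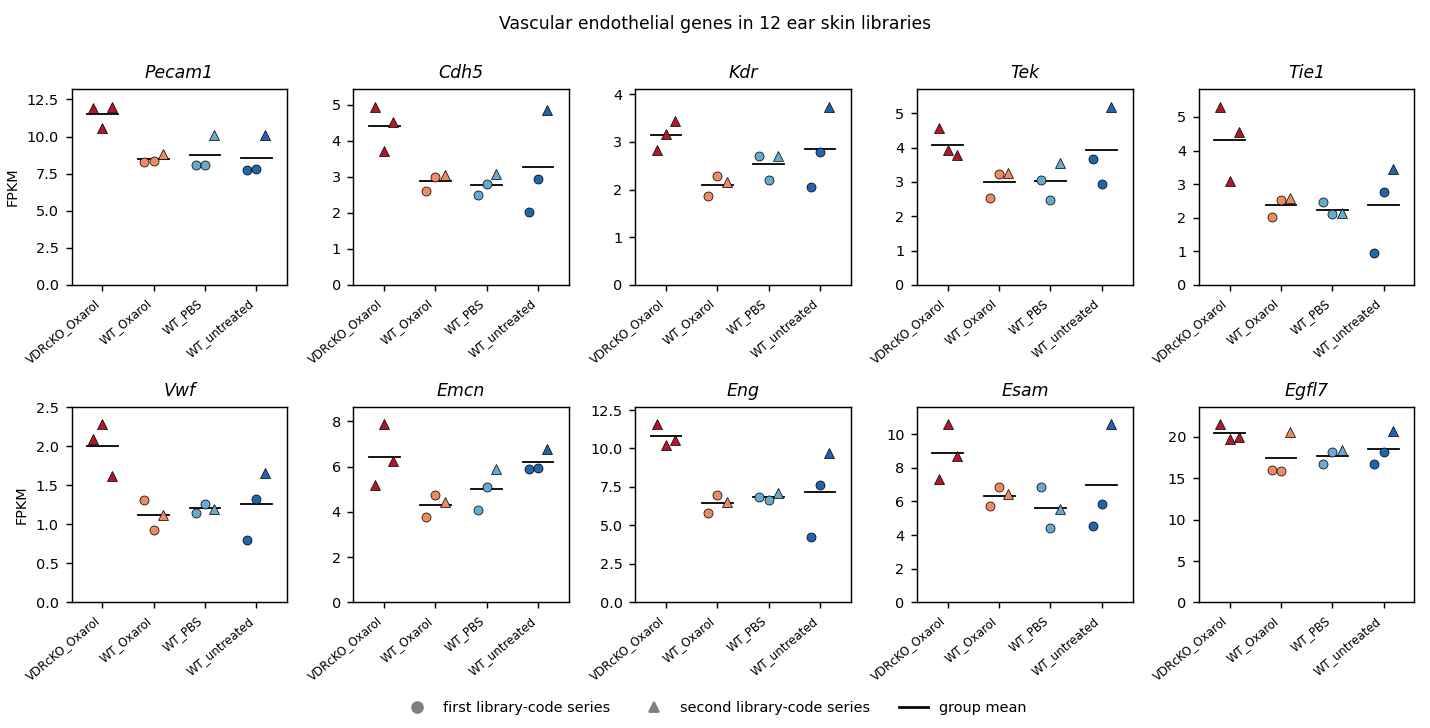
FPKM (vertical axes, from 0) of the 10 endothelial genes in each of 12 libraries, by group, with circles for the first and triangles for the second library-code series and a line at each group mean. The VDRcKO_Oxarol libraries lie above every WT_Oxarol library for 9 members, with Egfl7 the exception, and WT_untreated replicate 3, the triangle of that group, is its highest point in each panel.

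The junction and adhesion genes were higher in VDRcKO_Oxarol than in WT_Oxarol libraries, and Pecam1 passed the test. Pecam1 (CD31) is an adhesion molecule of endothelial contacts. It stood at 11.9, 10.6 and 12.0 FPKM in VDRcKO_Oxarol, against 8.26, 8.36 and 8.83 FPKM in WT_Oxarol. In WT_PBS it stood at 8.07, 8.10 and 10.1 FPKM and in WT_untreated at 7.75, 7.78 and 10.1 FPKM. All 3 VDRcKO_Oxarol values lay above all 9 wild type values. The ratio of mean FPKM over WT_Oxarol was 1.36, and the difference on the log2(FPKM + 1) scale was 0.40 ± 0.12 (SE; limma, Benjamini-Hochberg adjusted p = 0.0499 over 14059 genes). Cdh5 encodes VE-cadherin, the cadherin of endothelial adherens junctions. It stood at 4.94, 3.73 and 4.52 FPKM in VDRcKO_Oxarol, against 2.61, 2.98 and 3.05 FPKM in WT_Oxarol. The WT_PBS values were 2.48, 2.79 and 3.08 FPKM, and those in WT_untreated were 2.03, 2.93 and 4.85 FPKM. The last WT_untreated library therefore lay within the VDRcKO_Oxarol range, while the WT_Oxarol and WT_PBS libraries lay below it. The Cdh5 difference from WT_Oxarol was 0.47 ± 0.20 (SE; limma, adjusted p = 0.135). Esam, an immunoglobulin-like adhesion molecule of endothelial tight junctions, stood at 7.34, 10.6 and 8.71 FPKM in VDRcKO_Oxarol, against 5.73, 6.85 and 6.45 FPKM in WT_Oxarol. In WT_PBS its values were 6.83, 4.44 and 5.56 FPKM, and those in WT_untreated were 4.53, 5.86 and 10.6 FPKM. Its difference from WT_Oxarol was 0.42 ± 0.24 (SE; limma, adjusted p = 0.259), without passing although the 3 libraries of each group did not overlap.

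The 4 receptor genes were each higher in all 3 VDRcKO_Oxarol libraries than in all 3 WT_Oxarol libraries, and none passed the test. Kdr encodes VEGFR2, the main signalling receptor for VEGF-A. It stood at 2.84, 3.17 and 3.44 FPKM in VDRcKO_Oxarol, against 1.87, 2.30 and 2.15 FPKM in WT_Oxarol. Its WT_PBS values were 2.70, 2.20 and 2.71 FPKM, and those in WT_untreated were 2.05, 2.78 and 3.74 FPKM. Kdr was lowest as a group mean in WT_Oxarol, 2.11 ± 0.21 FPKM (SD, n = 3), and its difference of VDRcKO_Oxarol from that group was 0.42 ± 0.15 (SE; limma, adjusted p = 0.0865). Tek encodes TIE2, the receptor of the angiopoietins. It stood at 4.55, 3.92 and 3.78 FPKM in VDRcKO_Oxarol, against 2.54, 3.24 and 3.26 FPKM in WT_Oxarol. Its WT_PBS values were 3.05, 2.48 and 3.54 FPKM, and those in WT_untreated were 3.66, 2.92 and 5.18 FPKM. The highest Tek value of all 12 libraries was thus a wild type one, and the difference from WT_Oxarol was 0.34 ± 0.17 (SE; limma, adjusted p = 0.183). Tie1 encodes a partner receptor of TIE2 with no ligand of its own established. It stood at 5.30, 3.11 and 4.54 FPKM in VDRcKO_Oxarol, against 2.02, 2.52 and 2.60 FPKM in WT_Oxarol. Values in WT_PBS were 2.47, 2.11 and 2.15 FPKM, and those in WT_untreated were 0.957, 2.75 and 3.46 FPKM. Tie1 had the largest ratio of the 10 members over WT_Oxarol, 1.81, with a difference of 0.63 ± 0.27 (SE; limma, adjusted p = 0.130) and the lowest VDRcKO_Oxarol library below the highest untreated one.

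Eng encodes endoglin, the co-receptor through which endothelial cells respond to BMP9 and TGF-beta. Eng stood at 11.6, 10.2 and 10.5 FPKM in VDRcKO_Oxarol, against 5.82, 6.997 and 6.54 FPKM in WT_Oxarol. In WT_PBS it stood at 6.82, 6.66 and 7.11 FPKM and in WT_untreated at 4.24, 7.62 and 9.71 FPKM. As with Pecam1, all 3 VDRcKO_Oxarol values lay above all 9 wild type values, and these were the 2 of 10 members for which that held, against 15% of the 14059 genes tested. The Eng difference from WT_Oxarol was the largest of the 10 on the log2(FPKM + 1) scale, 0.66 ± 0.21 (SE; limma, adjusted p = 0.0568), at a ratio of mean FPKM of 1.67.

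Among the secreted and surface proteins, Vwf passed the test in VDRcKO_Oxarol against WT_Oxarol. Vwf stood at 2.099, 2.28 and 1.62 FPKM in VDRcKO_Oxarol, against 1.32, 0.927 and 1.12 FPKM in WT_Oxarol. The WT_PBS values were 1.14, 1.27 and 1.20 FPKM, and those in WT_untreated were 0.795, 1.32 and 1.65 FPKM. The ratio of means over WT_Oxarol was 1.78 and the difference 0.50 ± 0.15 (SE; limma, adjusted p = 0.0498). At these low levels the log2(FPKM + 1) scale understates a ratio. Emcn encodes endomucin, a sialomucin of capillary and venous endothelium. It stood at 5.21, 7.87 and 6.26 FPKM in VDRcKO_Oxarol, against 3.79, 4.75 and 4.43 FPKM in WT_Oxarol. In WT_PBS its values were 4.08, 5.10 and 5.92 FPKM, and those in WT_untreated were 5.90, 5.93 and 6.79 FPKM. The 3 WT_untreated values lay above all 3 WT_Oxarol values and within the VDRcKO_Oxarol range. Its difference of VDRcKO_Oxarol from WT_Oxarol was 0.47 ± 0.15 (SE; limma, adjusted p = 0.0634). Egfl7 stood at 21.5, 19.7 and 19.99 FPKM in VDRcKO_Oxarol, against 16.0, 15.9 and 20.5 FPKM in WT_Oxarol. Values in WT_PBS were 16.6, 18.2 and 18.3 FPKM, and those in WT_untreated were 16.7, 18.1 and 20.7 FPKM. Egfl7, the most abundant member, had the smallest difference from WT_Oxarol, 0.22 ± 0.11 (SE; limma, adjusted p = 0.197), and its groups overlapped. Mir126, the older symbol of the microRNA gene that lies with Egfl7 and whose mature sequence is printed above, was listed at 0 in 11 libraries and at 11.4 FPKM in WT_PBS replicate 3, the deepest one.

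Set against WT_Oxarol, the comparison that holds the ointment constant, 2 of 10 members (Pecam1 and Vwf) were called higher in VDRcKO_Oxarol and 0 lower, against 13.1% of all 14059 genes called (8.71% higher and 4.43% lower). At an unadjusted p under 0.05, 7 of 10 were higher, against 21% of all genes, and in 9 of 10 the groups did not overlap, against 27.9%. All 10 differences lay above 0, against 60% of all genes. The median difference was 0.44 for the members (range 0.22 to 0.66) and 0.08 for all genes. Both calls were at the edge of the threshold, and the count of calls depended on single libraries, also on libraries of groups outside the comparison, which share the estimate of spread. It was 6 without WT_untreated replicate 1 (24.4% of all genes called), 5 without WT_untreated replicate 3 (15.7%) and 1 without WT_PBS replicate 3 (11.1%). Without any of the other 9 libraries it was 0, against 2.29% to 11.4% of all genes. With a term for the library series 0 members were called, against 2.01% of all genes, and the members' median difference was 0.26. Within the second series alone (3 against 1 library) their median difference was 0.40. The median of all genes depended on scaling, 0.08 as deposited, 0.02 with median-of-ratios and -0.04 with quantile normalization, and the calls over all genes were 1225 higher and 623 lower, 898 and 996, and 820 and 1292 under these 3 scalings. The members' median was 0.44, 0.39 and 0.27, with all 10 above 0 each time and 0 called under both alternatives. In bulk tissue, a different number of endothelial cells and a different amount of RNA per cell cannot be told apart.

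**Figure D2:**
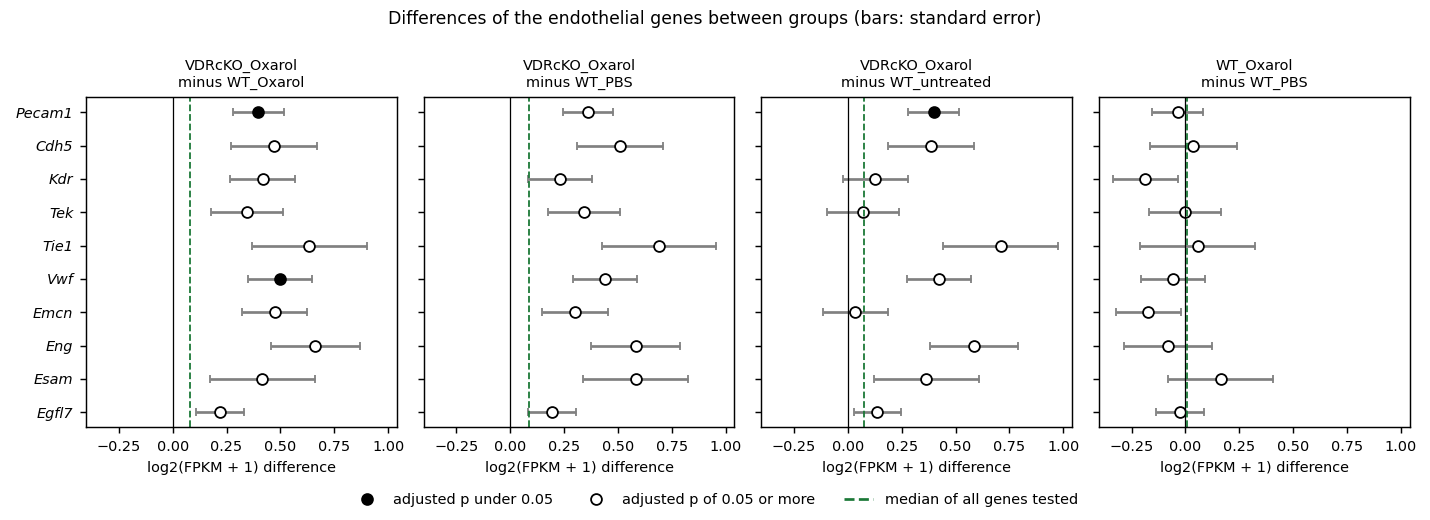
Differences on the log2(FPKM + 1) scale (horizontal axes) of the 10 members in 4 comparisons, with bars of 1 standard error, filled points where the limma adjusted p was under 0.05 and a dashed line at the median of all 14059 genes tested. In the 3 comparisons of VDRcKO_Oxarol all points lie above 0, with Pecam1 and Vwf filled against WT_Oxarol and Pecam1 filled against WT_untreated. Points of WT_Oxarol against WT_PBS lie on both sides of 0.

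Against WT_PBS, in which genotype and treatment differ together, 0 of 10 members were called by limma, against 16.3% of all genes (10.8% higher and 5.49% lower). At an unadjusted p under 0.05, 6 of 10 were higher (22.7% of all genes). The groups did not overlap for 9 of 10 members, with Emcn the exception, against 31% of all genes, and the median difference was 0.40 against 0.09 for all genes. All 10 differences lay above 0, against 60.3% of all genes. The largest differences were Tie1 at 0.69 ± 0.27 (SE; limma, adjusted p = 0.0964), Eng at 0.58 ± 0.21 (adjusted p = 0.0750) and Esam at 0.58 ± 0.24 (adjusted p = 0.120). The count was 5 without WT_untreated replicate 1 (27.6% of all genes called), 5 without WT_untreated replicate 3 (19%) and 1 without WT_PBS replicate 3 (12.8%). Without any of the other 9 libraries it was 0, against 3.86% to 15.1% of all genes. With the library series as a term the members' median was 0.24, with 0 called, against 4.35% of all genes. Within the second series alone the members' median was 0.28.

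Against WT_untreated, 1 of 10 members, Pecam1, was called higher (0.40 ± 0.12, SE; limma, adjusted p = 0.0407) and 0 lower, against 19% of all genes (12.8% higher and 6.2% lower). The groups did not overlap for Pecam1 and Eng only, 2 of 10 against 24.4% of all genes. At an unadjusted p under 0.05, 4 of 10 were higher, against 23.7%. All 10 differences lay above 0, against 58.8% of all genes, with a median of 0.37 against 0.08 for all genes. Emcn and Tek had the smallest differences, 0.03 ± 0.15 and 0.07 ± 0.17 (SE). Without WT_untreated replicate 3 the count was 6 (20.6% of all genes called), and without WT_PBS replicate 3 it was 1 (16.2%). Without any of the other 10 libraries it was 0, against 8.31% to 18.3% of all genes. Within the second series, against WT_untreated replicate 3, the only library of that group in it, 4 of 10 members were above 0, with a median of -0.05. Adipocyte, skeletal muscle and pericyte markers of that library also stood apart, as described below. In the same series, 9 of 10 members were above 0 against the WT_Oxarol library (median 0.40) and 10 of 10 against the WT_PBS library (median 0.28). With the series as a term 6 of 10 were above 0, with a median of 0.16. The 3 comparisons of VDRcKO_Oxarol share its libraries, so their members' differences are not separate evidence.

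Among wild type groups, no member was called in any comparison. PBS is not the base of the ointment, so WT_Oxarol against WT_PBS joins maxacalcitol with that base. In this comparison limma called 0 of 10 members, against 0.306% of all genes, and 0 of 10 had an unadjusted p under 0.05, against 7.45%. The differences ran from -0.19 ± 0.15 (SE) for Kdr to 0.16 ± 0.24 for Esam, with a median of -0.03 against 0.01 for all genes. Tek, at -0.0012 ± 0.17, and Egfl7, at -0.03 ± 0.11, were closest to 0. A p-value that misses the threshold does not show equal levels; the standard errors of the 10 members, 0.11 to 0.27, give the size of difference that these libraries could miss. For WT_PBS against WT_untreated, 0 of 10 members were called by limma (0.00711% of all genes) and 0 of 10 had an unadjusted p under 0.05 (9.33%). For WT_Oxarol against WT_untreated, 0 of 10 were called (1.31% of all genes), and 1 of 10, Emcn, had an unadjusted p under 0.05 (17.1%). Emcn was lower in all 3 WT_Oxarol libraries than in all 3 WT_untreated libraries, by -0.44 ± 0.15 (SE; limma, adjusted p = 0.175), as were 9.85% of all genes. Within the first series alone, 0 members were called in these 3 comparisons. These 3 comparisons share groups with each other and with those of VDRcKO_Oxarol.

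The spread of the members' summed level differed between groups. The sum was 75.2 to 77.3 FPKM over the 3 VDRcKO_Oxarol libraries, against 49.99 to 59.0 FPKM in WT_Oxarol, 53.3 to 59.8 FPKM in WT_PBS and 48.6, 58.0 and 76.7 FPKM in the WT_untreated replicates. The spread of single members went both ways. The SD of Tie1 was 25.8% of its mean in VDRcKO_Oxarol and 13.1% in WT_Oxarol, and that of Egfl7 4.72% and 15.2%. All VDRcKO_Oxarol libraries are of the second series, while each wild type group mixes both series. WT_untreated replicate 3 alone among wild type libraries reached the VDRcKO_Oxarol range of the sum. It was the highest wild type library for 9 of 10 members, all but Pecam1. WT_untreated replicate 1 was the lowest wild type library for 5 members. In replicate 3, marker sums of other tissues also stood apart. The 4 adipocyte genes summed to 1193 FPKM there, against 373 and 483 FPKM in the other WT_untreated libraries, the 4 skeletal muscle genes to 6677 FPKM, against 2813 and 2918 FPKM, and the 11 pericyte and vascular smooth muscle genes to 230 FPKM, against 139 and 158 FPKM. The part of this tissue makeup in the members' values was not tested.

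Of 28 further genes of the cell type, 27 were tested. The lists used here share some genes. Mmrn1 is also in the lymphatic list, Flt1 in that of VEGF ligands and co-receptors, and Nos3 in that of blood flow. Flt4 is in both the VEGF and the lymphatic list. In VDRcKO_Oxarol against WT_Oxarol, 2 of 27 were called higher and 0 lower, against 8.71% of all genes called higher, a share near the background. A difference above 0 was found for 23 of 27 (60% of all genes) and groups without overlap on the higher side for 18 of 27 (27.9%), and the median difference was 0.36, against 0.08 for all genes. Sox7, a transcription factor of endothelial cells, stood at 12.3, 11.3 and 11.9 FPKM in VDRcKO_Oxarol, against 4.92, 5.72 and 7.06 FPKM in WT_Oxarol. It rose by 0.91 ± 0.14 (SE; limma, adjusted p = 0.00765) and was called in 19 of 20 alternative settings, with the second series alone the exception. Rasip1, which acts in vessel tube formation, stood at 6.00, 5.52 and 6.90 FPKM in VDRcKO_Oxarol, against 2.72, 3.32 and 2.94 FPKM in WT_Oxarol. It rose by 0.84 ± 0.20 (SE; limma, adjusted p = 0.0277) and was called in 11 of 20 alternatives, neither with a term for the library series nor in the second series alone. Both differences were larger than that of Eng, the largest among the 10 members, on this scale. Against WT_PBS, 8 of 27 were called higher and 0 lower, where 10.8% of all genes were called higher, among them Ramp2, a receptor-modifying protein of adrenomedullin signalling (0.82 ± 0.15), Clec14a, an endothelial lectin-like protein (0.70 ± 0.15), and the water channel Aqp1 (0.65 ± 0.15; SE, limma). Against WT_untreated, 6 of 27 were called higher and 0 lower, where 12.8% of all genes were called higher, with Plvap, the diaphragm protein of capillary fenestrae, at 1.27 ± 0.26 (SE; limma, adjusted p = 0.0125). Ramp2 was called in 19 of 20 alternative settings, Clec14a in 17 of 19, Aqp1 in 14 of 20 and Plvap in 17 of 20. With a term for the library series, 1 of 27 was called higher against WT_Oxarol, 2 against WT_PBS and 1 against WT_untreated. Over all 14059 genes, 183, 386 and 700 were called higher in these fits. Clec14a, Aqp1 and Plvap were not called in these comparisons with that term. In the second series alone the median differences of the 27 were 0.27, 0.36 and 0.13. Among wild type groups, 0 of 27 were called by limma in any of the 3 comparisons (0.00711% to 1.31% of all genes). For WT_Oxarol against WT_PBS, 1 gene had an unadjusted p under 0.05 (7.45% of all genes). The count was 3 for WT_PBS against WT_untreated (9.33%) and 2 for WT_Oxarol against WT_untreated (17.1%).

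Ligands and partner receptors of the members are set against the shares over all genes in VDRcKO_Oxarol against WT_Oxarol, 13.1% called (8.71% higher) and 32.2% at an unadjusted p under 0.05. Of 8 tested VEGF ligands and co-receptors, 1 was called higher in VDRcKO_Oxarol against WT_Oxarol and 0 lower. It was Nrp2, a co-receptor of VEGF-C, with 8.68, 9.55 and 7.58 FPKM in VDRcKO_Oxarol, against 5.39, 5.66 and 4.46 FPKM in WT_Oxarol (0.64 ± 0.15, SE; limma, adjusted p = 0.0234). Vegfa, the main ligand of the Kdr product, stayed below the filter, at 0.49 to 0.83 FPKM in VDRcKO_Oxarol, against 0.68 to 1.09 FPKM in WT_Oxarol, and Flt1, the other VEGF-A receptor, differed by 0.20 ± 0.15 (SE; limma, adjusted p = 0.391). Of 6 angiopoietins and related genes 0 were called by limma, with 3 at an unadjusted p under 0.05. Angpt1, the activating ligand of the Tek product, stood at 2.26, 2.64 and 1.89 FPKM in VDRcKO_Oxarol, against 0.99, 1.62 and 1.47 FPKM in WT_Oxarol (0.47 ± 0.18, adjusted p = 0.109). Angpt2, a context-dependent antagonist made by endothelium, differed by 0.13 ± 0.12 (adjusted p = 0.459). Of 11 tested genes of the endoglin and TGF-beta/BMP arm, 0 were called by limma, with 3 at an unadjusted p under 0.05. Acvrl1, which encodes the type I receptor ALK1 that works with endoglin, stood at 4.65, 3.92 and 3.09 FPKM in VDRcKO_Oxarol, against 1.93, 3.12 and 2.25 FPKM in WT_Oxarol (0.51 ± 0.18, adjusted p = 0.0867). Gdf2 and Bmp10, which encode the circulating ligands BMP9 and BMP10, were listed at 0 in all 12 libraries.

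In the Notch arm, 1 of 7 tested genes was called, against 13.1% of all genes: Notch1 stood at 7.19, 6.56 and 6.71 FPKM in VDRcKO_Oxarol, against 4.29, 3.54 and 4.46 FPKM in WT_Oxarol (0.62 ± 0.15, SE; limma, adjusted p = 0.0269). Notch1 is also made by keratinocytes. Of 6 tested genes of activated endothelium, 2 were called, the leukocyte adhesion molecules Vcam1 (0.70 ± 0.15, adjusted p = 0.0200) and Icam1 (0.44 ± 0.13, adjusted p = 0.0488). Of the 6, 4 differed by more than 0, against 60% of all genes. The sums of the 7 listed genes overlapped, at 62.8 to 92.6 FPKM in VDRcKO_Oxarol, against 49.99 to 94.2 FPKM in WT_Oxarol. Which cells gave these values was not tested. Of 5 genes that respond to blood flow, 1 was called: Klf2, a transcription factor induced by shear stress, stood at 42.7, 42.7 and 62.3 FPKM in VDRcKO_Oxarol, against 14.5, 12.5 and 26.4 FPKM in WT_Oxarol (1.46 ± 0.36, SE; limma, adjusted p = 0.0282). Nrp2, Notch1, Vcam1, Icam1 and Klf2 were called in 14 of 20, 13 of 20, 14 of 19, 3 of 20 and 12 of 20 alternative settings, and none of them with the library series as a term or within the second series alone.

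Lymphatic endothelial genes lay on both sides of 0. Of 6 tested, 0 were called by limma in VDRcKO_Oxarol against WT_Oxarol (13.1% of all genes) and 2 had an unadjusted p under 0.05, 1 in each direction (32.2% of all genes). The median difference was -0.09, with 2 of 6 above 0. Lyve1, the hyaluronan receptor of lymphatic capillaries, stood at 8.93, 7.89 and 7.45 FPKM in VDRcKO_Oxarol, against 7.75, 8.06 and 9.38 FPKM in WT_Oxarol. Flt4, which encodes the VEGF-C receptor VEGFR3, stood at 2.57, 2.38 and 2.24 FPKM in VDRcKO_Oxarol, against 2.53, 2.82 and 4.13 FPKM in WT_Oxarol. Both overlapped between the groups. Prox1, the transcription factor of lymphatic identity, stood at 1.06, 1.49 and 1.31 FPKM in VDRcKO_Oxarol, against 1.15, 1.00 and 1.01 FPKM in WT_Oxarol. Compared with WT_PBS, 0 of 6 were called by limma (16.3% of all genes), with a median of -0.28. The groups did not overlap for 4 genes on the lower side and 1 on the higher, against 2302 and 4359 of all 14059 genes. When the fit included library series, 1 was called lower, against 225 of all genes. Relative to WT_untreated, only Pdpn was called (19% of all genes), higher by 0.49 (limma, adjusted p = 0.0105), and the median was -0.02. Pdpn was also called in 19 of 20 alternatives. Which cells gave its values was not tested. The list mean of log2(FPKM + 1) was 2.43, 2.35 and 3.04 in VDRcKO_Oxarol, against 2.31, 2.42 and 2.50 in WT_Oxarol. The difference between the blood vessel and lymphatic lists was not itself tested.

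**Figure D3:**
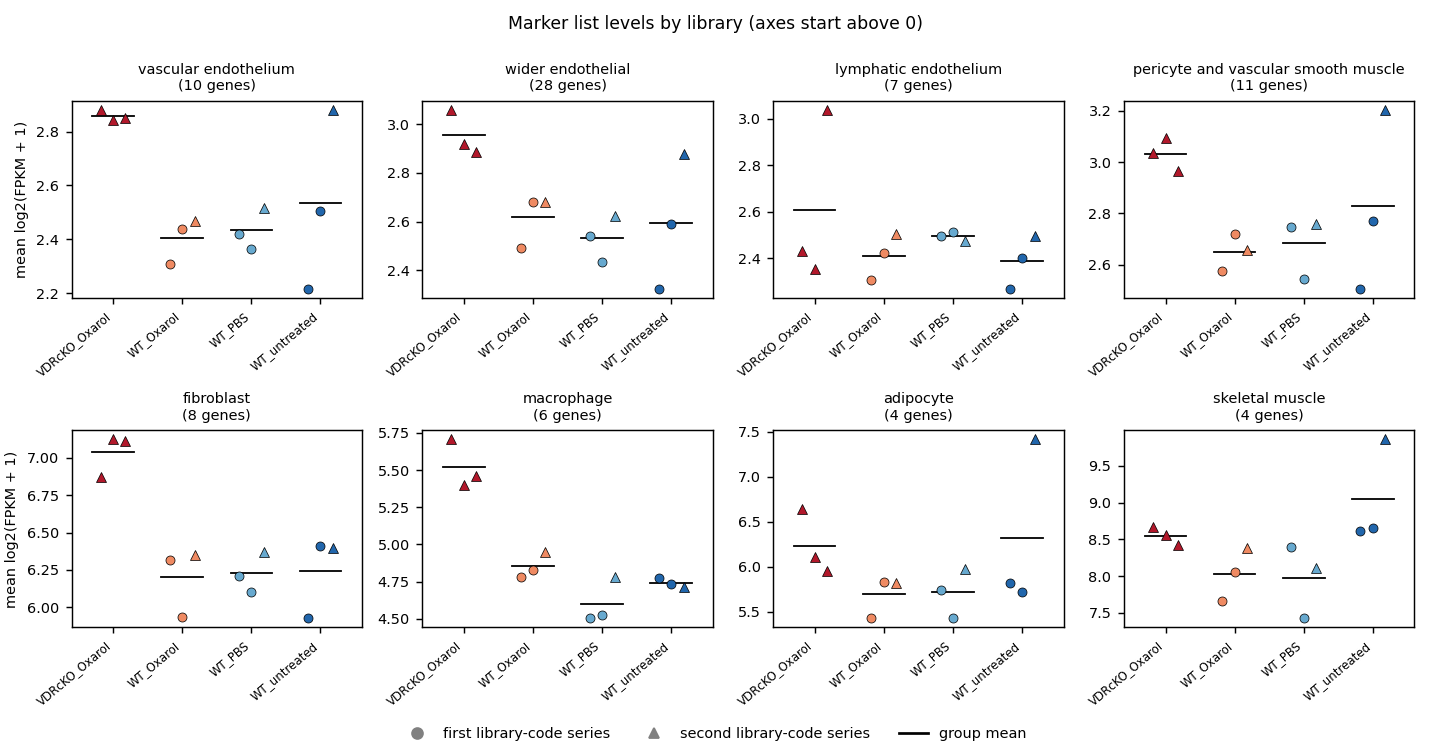
Mean log2(FPKM + 1) of 8 marker lists (vertical axes, which start above 0) in each of the 12 libraries, with circles and triangles for the library-code series and a line at each group mean. The members and the wider endothelial genes lie highest in the 3 VDRcKO_Oxarol libraries and in WT_untreated replicate 3, the fibroblast and macrophage lists in the 3 VDRcKO_Oxarol libraries, and the adipocyte and skeletal muscle lists in WT_untreated replicate 3.

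Markers of other cell types moved with the members in VDRcKO_Oxarol against WT_Oxarol, where 8.71% of all genes were called higher and 13.1% in either direction. Of 6 macrophage genes, 5 were called higher, and the list summed to 640 to 848 FPKM in VDRcKO_Oxarol, against 356 to 461 FPKM in WT_Oxarol. Of 4 pan-leukocyte genes, 2 were called higher, with sums of 106 to 137 FPKM in VDRcKO_Oxarol, against 78.9 to 85.2 FPKM in WT_Oxarol. These sums did not overlap between the groups. Of 8 fibroblast genes, 5 were called higher, with 3137 to 3846 FPKM in VDRcKO_Oxarol, against 2046 to 2697 FPKM in WT_Oxarol. Of 10 tested pericyte and vascular smooth muscle genes, 3 were called higher, Cspg4, Pdgfrb and Des, and the 11 listed summed to 186 to 198 FPKM in VDRcKO_Oxarol, against 125 to 150 FPKM in WT_Oxarol. Cartilage, which lies inside the ear, had 3 of 5 genes called higher and sums of 66.9 to 68.9 FPKM in VDRcKO_Oxarol, against 28.9 to 42.0 FPKM in WT_Oxarol. Hair follicle keratins had 7 of 8 called higher and sums of 184 to 787 FPKM in VDRcKO_Oxarol, against 2.999 to 36.8 FPKM in WT_Oxarol. The hair follicle sum also reached 200.3 FPKM in WT_PBS replicate 3, above the lowest VDRcKO_Oxarol library, and 108 FPKM in WT_untreated replicate 3. Both are of the second series. The other wild type library of that series, WT_Oxarol replicate 3, had the lowest sum of the 12 libraries, 2.999 FPKM. WT_Oxarol replicate 1, of the first series, had 36.8 FPKM. In the other direction, 1 of 3 tested platelet and megakaryocyte genes, Itga2b, was called lower, with list sums of 192 to 231 FPKM in VDRcKO_Oxarol, against 175 to 231 FPKM in WT_Oxarol. The 4 adipocyte genes summed to 563 to 844 FPKM in VDRcKO_Oxarol, against 308 to 424 FPKM in WT_Oxarol, also without overlap. Of 6 keratinocyte, 4 adipocyte, 4 skeletal muscle and 4 tested erythrocyte genes, 0 were called by limma, with 1, 1, 0 and 1 at an unadjusted p under 0.05. With a term for the library series, 2.01% of all genes were called. In that fit, 2 of the 5 macrophage calls (Emr1 and Mrc1) and 1 of the 3 pericyte and vascular smooth muscle calls (Cspg4) were still made. So were 2 of the 3 cartilage calls (Col2a1 and Col11a2), and 0 of the pan-leukocyte, fibroblast, hair follicle and platelet calls. In the second series alone limma made 0 calls in each of these lists. The part of these cell types in the members' values was not tested.

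Within groups the members varied together. Taking each library's deviation from its group mean on the log2(FPKM + 1) scale, 44 of the 45 pairs of members had a Pearson r above 0 over the 12 libraries, with a median of 0.55. The highest was 0.93 for Tie1 with Eng, and the lowest -0.14 for Tie1 with Emcn. By median r with the other 9 members, Cdh5 (0.70) and Eng (0.69) stood highest and Emcn lowest (0.19). The points share a library and its depth and tissue makeup, and the WT_untreated libraries, which have the widest spread, weigh most, so these values describe the 12 libraries only.

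**Figure D4:**
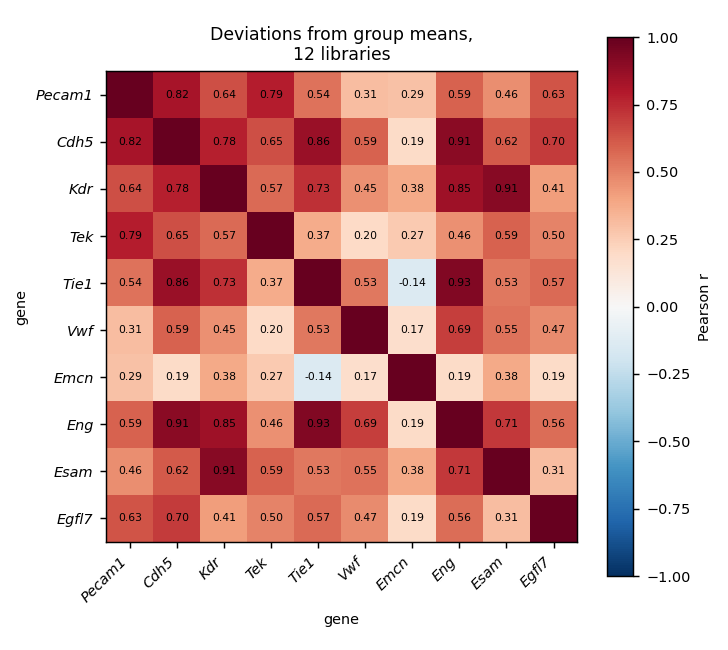
Pearson r between members (both axes) of the deviations from group means over 12 libraries, as a colour scale from -1 to 1 with each value off the diagonal printed. Off the diagonal, the Emcn row and column hold the palest cells, with a median of 0.19, and Tie1 with Eng holds the darkest at 0.93.

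Among 9033 other genes with a mean of at least 5 FPKM, the 8 whose level followed the mean of the members most closely over the 12 libraries had a Pearson r of 0.95 to 0.96. They were Marcks, Fasn, Gm7030, Cyp1b1, Grb10, Pcx, Lamb1 and a row that carries a number in place of a symbol. For deviations from group means the 8 were Dram1, Slc1a5, Kif1b, Gpd1, Acads, Pfkfb3, Bin1 and Dlc1, at 0.95 to 0.98. Fasn and Gpd1 are enzymes of fat metabolism. Gpd1 was highest in WT_untreated replicate 3, at 91.6 FPKM, against 8.77 and 29.9 FPKM in the other WT_untreated libraries. Fasn stood at 15.5 FPKM in that replicate, against 7.23 and 11.7 FPKM in the others, and at 14.9 to 17.7 FPKM in VDRcKO_Oxarol. None of the genes named here belongs to the wider endothelial list.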

How the data were processed

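RNA of ear skin was sequenced in 12 libraries after preparation with an NEBNext Ultra kit, per the labels' protocols. The submitters' processing notes name TopHat2 2.0.8, Bowtie2 2.1.0, Cufflinks 2.1.1 and the build mm9, with no role given. The authors deposited 1 value per symbol and library, read as FPKM because Cufflinks is named and the values fit that scale; the file headers print no unit. Depth was therefore estimated from the value of 1 fragment, by a method tested on simulated data. Strandedness is not given, so genes that overlap on opposite strands cannot be told apart. Egfl7 and Mir126 both lie on the plus strand, where strandedness would not separate them.

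Values were tested as log2(FPKM + 1) with limma 3.58.1 in R 4.3.3, in 1 fit with a mean per group (8 degrees of freedom left, variance trended on level) over 14059 genes, 2-sided, with Benjamini-Hochberg adjustment over all of them at 0.05. The test recovered most of the known changes of 2 on the log2 scale in simulated data. Those changes were larger than any difference of a member, so the simulation does not cover differences of that size. The members and gene lists were chosen with earlier results of these data known. Named were all members, list genes past the threshold (up to 4 a list; any gene of a short list) and the 8 genes most like the members. Angpt1, Angpt2, Flt1, Vegfa, Acvrl1 and the lymphatic genes were named for their role. Alternatives were another pseudocount (0.1), other filters (none, 5 FPKM), quantile and median-of-ratios scaling, fits of 2 groups only, the library series as a term, 1 series alone and each library left out. Applying them to list genes was decided after seeing the data. Python 3.11.15 with matplotlib 3.10.9 drew the figures.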

Additional observations from a re-analysis of the deposited data

How the results depend on the processing

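No member was called in the 3 comparisons among wild type groups under any alternative. The count of members called in VDRcKO_Oxarol against WT_Oxarol, 2 as reported, was 0 with a pseudocount of 0.1, no filter, quantile normalization, median-of-ratios scaling, the library series as a term or the second series alone, 1 with a filter of 5 FPKM (which leaves 5 members tested), 5 with the 2 groups only, and 0 to 6 leaving out a library. Against WT_PBS, 0 as reported, it was 4 with the 2 groups only and 0 to 5 leaving out a library. Against WT_untreated, 1 as reported, it was 0 with no filter, quantile normalization, median-of-ratios scaling, the 2 groups only, the series as a term or the second series alone, and 0 to 6 leaving out a library. Pecam1 was called against WT_Oxarol in 5 of 20 alternatives (adjusted p 0.0254 to 0.217), Vwf in 3 of 19 (0.0145 to 0.218), and Pecam1 against WT_untreated in 4 of 20 (0.0160 to 0.444). Of all genes tested in VDRcKO_Oxarol against WT_Oxarol, 10.5% were called with a pseudocount of 0.1 and 5.32% with no filter. The share was 14.7% with a filter of 5 FPKM and 18.1% with the 2 groups only. The cause of these changes was not tested.

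Of 1170 member values under alternatives, 1031 kept direction and side of the threshold, 47 no longer passed, 30 newly passed and 62 changed sign. In VDRcKO_Oxarol against WT_Oxarol the sign change was Egfl7 at -0.012 in the second series alone, and against WT_PBS there was none. Against WT_untreated, the second series alone gave Cdh5 -0.12, Kdr -0.19, Tek -0.28, Emcn -0.081, Esam -0.24 and Egfl7 -0.020, quantile normalization Kdr -0.071, Tek -0.13 and Emcn -0.16, the series as a term Kdr -0.011, Tek -0.14, Emcn -0.085 and Egfl7 -0.0085, and median-of-ratios scaling Emcn -0.017; leaving out a library gave Kdr -0.031 to 0.29, Tek -0.082 to 0.25 and Emcn -0.10 to 0.16. For WT_Oxarol against WT_PBS, the first series alone gave Pecam1 0.035, Tek 0.045 and Tie1 -0.010, and leaving out a library Pecam1 -0.086 to 0.061, Cdh5 -0.021 to 0.093, Tek -0.10 to 0.090, Vwf -0.12 to 0.0089 and Egfl7 -0.14 to 0.034. For WT_PBS against WT_untreated, the first series alone gave Cdh5 0.075, Kdr 0.020, Vwf 0.11 and Esam 0.083, quantile normalization Eng -0.012, and leaving out a library Pecam1 -0.061 to 0.15, Cdh5 -0.34 to 0.13, Kdr -0.26 to 0.056, Tie1 -0.34 to 0.26, Vwf -0.17 to 0.11, Eng -0.29 to 0.23, Esam -0.45 to 0.086 and Egfl7 -0.12 to 0.024. For WT_Oxarol against WT_untreated, the first series alone gave Cdh5 0.14, Vwf 0.050, Eng 0.14 and Esam 0.24, quantile normalization Pecam1 -0.022, and leaving out a library Pecam1 -0.058 to 0.11, Cdh5 -0.31 to 0.17, Tie1 -0.28 to 0.31, Vwf -0.23 to 0.052, Eng -0.37 to 0.15 and Esam -0.28 to 0.25.

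Calls over all genes were 1848 in VDRcKO_Oxarol against WT_Oxarol, 283 with the series as a term, 53 in the second series alone and 322 to 3433 leaving out a library. Against WT_PBS they were 2286, 3737 with the 2 groups only, 611, 86 and 543 to 3875 in the same settings, and against WT_untreated 2668, 435 with the 2 groups only, 1109, 104 and 1168 to 2896. For WT_Oxarol against WT_PBS they were 43, 0 with the 2 groups only, 8 in the first series alone and 13 to 132 leaving out a library, and for WT_Oxarol against WT_untreated 184, 44 with no filter, 12 with the 2 groups only, 26 in the first series alone and 34 to 254. For WT_PBS against WT_untreated they were 1 as reported and 13 at most, in the first series alone. Higher and lower calls were 1514 and 772 against WT_PBS and 1796 and 872 against WT_untreated as reported, 1144 and 1174, and 1439 and 1211 with median-of-ratios scaling, and 968 and 1620, and 1215 and 1849 with quantile normalization. No paired analysis was possible because the replicate numbers used here were given in deposit order to name libraries, and the labels hold none that could pair them. Estimated depth was lowest in VDRcKO_Oxarol, and over all libraries the lowest estimates for a member were 58.0 fragments for Tie1 and 62.5 for Esam. With the second series alone each wild type group has 1 library, whose spread is assumed to equal that of VDRcKO_Oxarol.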

Other observations

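Ratios between members were taken within each library. They were chosen after the members' values were seen, so they are a description with no test. The ratio of Emcn to Pecam1 was 0.436, 0.744 and 0.522 in VDRcKO_Oxarol, 0.459, 0.569 and 0.502 in WT_Oxarol, 0.506, 0.629 and 0.584 in WT_PBS, and 0.761, 0.762 and 0.673 in WT_untreated. Among wild type libraries it was lower in all 6 treated ones than in all 3 untreated ones. The VDRcKO_Oxarol values overlapped those of all 3 wild type groups.

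The ratio of Eng to Pecam1 was 0.969, 0.968 and 0.879 in VDRcKO_Oxarol, against 0.705, 0.837 and 0.741 in WT_Oxarol, 0.845, 0.823 and 0.702 in WT_PBS, and 0.547, 0.979 and 0.962 in WT_untreated. The VDRcKO_Oxarol values lay above those of WT_Oxarol and WT_PBS and overlapped those of WT_untreated. The ratio of Tie1 to Tek was 1.16, 0.792 and 1.20 in VDRcKO_Oxarol, against 0.798, 0.779 and 0.797 in WT_Oxarol, 0.810, 0.851 and 0.608 in WT_PBS, and 0.261, 0.942 and 0.669 in WT_untreated, with overlap between VDRcKO_Oxarol and every wild type group.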
